A study of Mus musculus with 6 samples.

Results

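The CHD genes encode chromodomain helicase DNA-binding proteins, a family of ATP-dependent chromatin remodelers, and 7 of them (*Chd1*, *Chd2*, *Chd3*, *Chd4*, *Chd5*, *Chd7* and *Chd8*) were followed between mouse embryonic stem cells (ESCs) and neural precursor cells (NPCs). They were chosen by gene identifier, and all 7 had a row among the 17144 genes measured. RNA came from 3 ESC and 3 NPC samples, each described as a biological replicate and each hybridized to 1 Affymetrix mouse expression array. All samples were wild type and of the 129SvJae/C57B6 F1 background. The ESCs were the blastocyst-derived line V6.5, grown in serum with LIF, and the NPCs were made from that line by differentiation in vitro and kept in N3 medium with bFGF and EGF. Both groups thus trace back to 1 cell line, and whether the NPC replicates came from separate derivations was not given in the sources used here, so that p-values measure the spread between these arrays.

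CHD proteins carry paired chromodomains, which in some members such as CHD1 bind methylated histone tails. They also carry a helicase-like motor that uses ATP to slide, space or evict nucleosomes. They are sorted by their other domains into subfamily I (CHD1 and CHD2), subfamily II (CHD3, CHD4 and CHD5, the motors of the nucleosome remodeling and deacetylase complex NuRD) and subfamily III, to which CHD7 and CHD8 belong. In ESCs, CHD1 is known for its part in keeping chromatin open. The CHD4 form of NuRD is known there for its part in restraining or permitting differentiation. In neural tissue, CHD7 and CHD8 are known from human developmental disorders caused by their loss of function.

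Between ESCs and NPCs the family moved in both directions. *Chd7* and *Chd3* were higher in NPCs, *Chd5* and *Chd1* were lower, and *Chd2*, *Chd4* and *Chd8* did not pass the test. All values are robust multi-array average (RMA) values on the log2 scale, on which a difference of 1 is a doubling. Calls required an adjusted p under 0.05 (limma on all 17144 genes, Benjamini-Hochberg adjustment) together with means that differed by more than 1.5-fold. By this rule 4 of the 7 CHD genes were called, beside 34.1% of all genes, with 2 of them higher (15.4% of all genes) and 2 lower (18.7% of all genes). The calls of *Chd3* and *Chd1* were narrow, and each was lost when certain single arrays were left out, as given below. The adjusted p alone was under 0.05 at the same 4 genes and at 49.0% of all genes. The NPC arrays did not overlap the ESC arrays at 4 of the 7 genes, 2 above (26.1% of all genes) and 2 below (32.6% of all genes), and the sum is close to the share of 58.7% among all genes. The median size of the difference, without regard to sign, was 0.59 among the 7 genes and 0.33 among all genes. The genes were chosen with earlier results known, so these shares are a description of the list.

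The cell type labels were checked against markers. *Pou5f1*, the pluripotency factor OCT4, had a mean of 12.44 in ESCs and 3.70 in NPCs, and the neural precursor genes *Nes*, *Vim* and *Fabp7* were all called higher in NPCs. Most names come from a printed list of genes that rose in NPCs, so the direction of these 3 was largely fixed by the naming. Only 8 of the 33 marker genes listed for 6 cell types could be named on the arrays. NPC replicate 3 stood apart, with correlations of 0.978 and 0.979 across genes to the other NPC arrays, which correlated with each other at 0.997. At 686 genes it lay more than 1 away from the mean of NPC replicates 1 and 2. Differences without this array are given where they change a call or move a value by over 1.5 times, and for all pairs of relatives. As RNA of whole cultures was measured, fewer cells that express a gene and less RNA per cell cannot be told apart, and different probe sets were not compared by level.

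**Figure D1:**
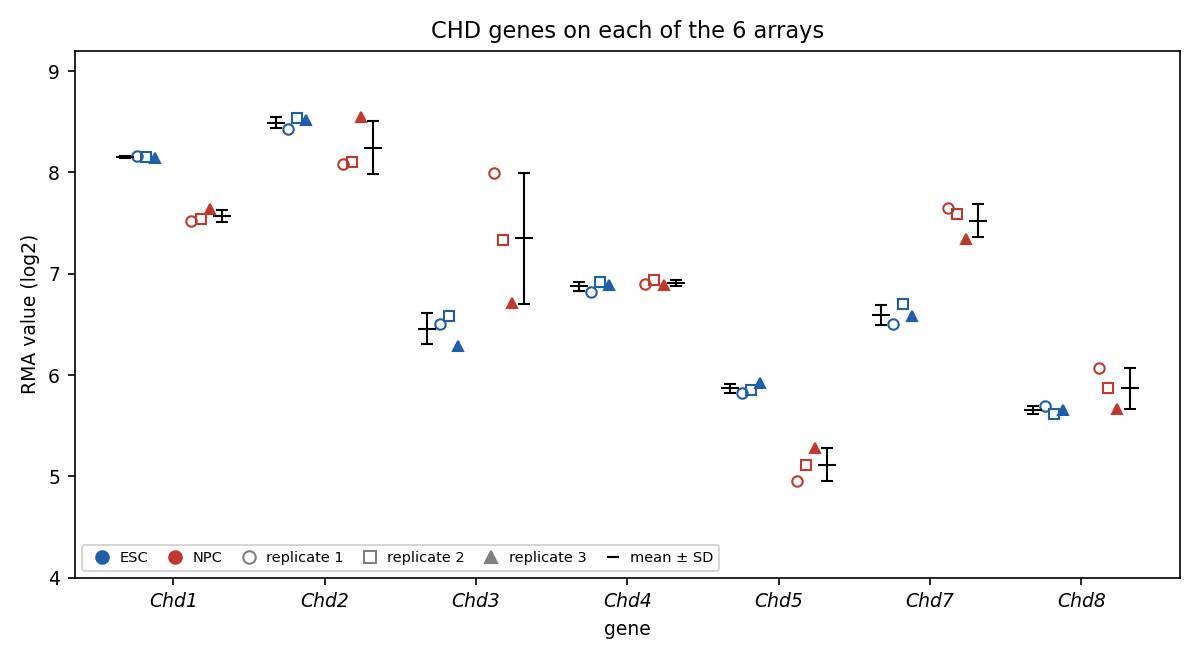
RMA values (log2, y axis) of the 7 CHD genes (x axis) on the 3 ESC arrays (blue) and the 3 NPC arrays (red), with the marker shape giving the replicate and bars the mean ± SD of n = 3 arrays. *Chd7* was higher on every NPC array and *Chd1* and *Chd5* lower, *Chd3* spread from 6.71 to 7.998 in NPCs, and *Chd4* stayed between 6.82 and 6.94 on all arrays.

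*Chd7* (ENSMUSG00000041235_at), of subfamily III, encodes a remodeler that acts at enhancers in neural and neural crest cells. It read 6.50, 6.70 and 6.59 on the ESC arrays and 7.65, 7.59 and 7.34 on the NPC arrays. All NPC values exceeded all ESC values, and NPC replicate 3 was the lowest of the NPC arrays. The mean rose from 6.60 ± 0.10 (SD, n = 3 arrays) to 7.52 ± 0.16 (SD, n = 3 arrays). The difference of 0.93 (standard error 0.11, adjusted p = 0.000316 by limma and Benjamini-Hochberg) is 1.90-fold, with a 95% interval of 1.59-fold to 2.27-fold. It was called whichever array was left out, with differences between 0.87 and 1.02. The rise was modest on the scale of the whole comparison, since 23.0% of all genes differed by at least as much in either direction.

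*Chd8* (ENSMUSG00000053754_at) is the other member of subfamily III measured, and its product is known for binding beta-catenin. It read 5.70, 5.61 and 5.66 on the ESC arrays and 6.07, 5.87 and 5.67 on the NPC arrays. NPC replicates 1 and 2 lay above all ESC arrays, whereas replicate 3 lay within them. The difference of 0.22 (standard error 0.11, adjusted p = 0.165 from limma) was not called, and its 95% interval of -0.05 to 0.49 stayed within a 1.5-fold change, which is 0.58 on this scale. Without NPC replicate 3 the difference was 0.32 with an adjusted p of 0.0160 from limma, still below 1.5-fold.

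*Chd3* (ENSMUSG00000018474_at), of subfamily II, encodes one of the alternative NuRD motors. It read 6.51, 6.58 and 6.29 on the ESC arrays and 7.998, 7.33 and 6.71 on the NPC arrays. The NPC arrays lay above the ESC arrays without overlap, but they covered a range of 1.28 among themselves, against 0.29 among the ESC arrays. The mean was 6.46 ± 0.15 (SD, n = 3 arrays) in ESCs and 7.35 ± 0.64 (SD, n = 3 arrays) in NPCs. The difference of 0.89 (standard error 0.30, adjusted p = 0.0419 by limma and Benjamini-Hochberg) passed narrowly, with a 95% interval of 0.19 to 1.59. Without NPC replicate 1 the difference fell to 0.56 and was not called (adjusted p = 0.0645 from limma), and without NPC replicate 3 it was 1.21 (adjusted p = 0.000626 from limma). The call was also lost when any ESC array or NPC replicate 2 was left out, with adjusted p values between 0.0855 and 0.135 from limma, and under a test with unequal variances and no moderation (adjusted p = 0.227). The one neuron marker of 6 that could be named, *Dcx*, read 4.86, 5.06 and 3.76 on NPC replicates 1 to 3, against 3.33 to 3.68 on the ESC arrays. *Dcx* too was lowest in replicate 3 among the NPC arrays, but it was highest in replicate 2, whereas *Chd3* was highest in replicate 1. The part of *Dcx*-expressing cells in the result was not tested.

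*Chd4* (ENSMUSG00000063870_at) encodes the main NuRD motor of ESCs. It read 6.82, 6.91 and 6.89 on the ESC arrays and 6.90, 6.94 and 6.89 on the NPC arrays. The groups overlapped, and the whole range over the 6 arrays was smaller than the fall or rise of any called member. The difference of 0.03 (standard error 0.07, adjusted p = 0.761 from limma) had a 95% interval of -0.14 to 0.21. This interval leaves room for changes of up to 1.15-fold upward and none as large as 1.5-fold in either direction. The values of ESC replicate 3 and NPC replicate 3 were equal in every deposited digit. Such ties occurred at 18 genes for that pair of arrays and at 11 to 32 genes for each of the 15 pairs of arrays.

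*Chd5* (ENSMUSG00000005045_at) encodes the NuRD motor best known from neurons. It read 5.83, 5.86 and 5.92 on the ESC arrays and 4.96, 5.11 and 5.28 on the NPC arrays. Every NPC array was thus below every ESC array, and NPC replicate 3 was the highest of the NPC arrays. The mean fell from 5.87 ± 0.05 (SD, n = 3 arrays) to 5.12 ± 0.16 (SD, n = 3 arrays). The difference of -0.75 (standard error 0.10, adjusted p = 0.000661 by limma and Benjamini-Hochberg) is 1.68-fold, with a 95% interval of -0.99 to -0.51. The gene was called whichever array was left out, with differences between -0.83 and -0.67. With array medians set equal the difference was -0.60, which is little past the 1.5-fold threshold.

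*Chd4* and *Chd5* encode alternative motors of the same complex, and *Chd5* was called lower while *Chd4* was not called. The difference between their changes gave p = 0.1 in the two-sided exact permutation test described with the pairs, the smallest p it allows. The 250 bases before the first RefSeq transcription start available for each are shown for comparison of their sequence. The set of RefSeq promoter sequences used here (GRCm38.p6) held an entry for 3 of the 7 genes, namely *Chd4*, *Chd5* and *Chd8*. The sequences run 5′ to 3′ on the strand of the gene, which is the plus strand for both, and capitals mark CpG dinucleotides.
Chd4, chr6:125095731-125095980: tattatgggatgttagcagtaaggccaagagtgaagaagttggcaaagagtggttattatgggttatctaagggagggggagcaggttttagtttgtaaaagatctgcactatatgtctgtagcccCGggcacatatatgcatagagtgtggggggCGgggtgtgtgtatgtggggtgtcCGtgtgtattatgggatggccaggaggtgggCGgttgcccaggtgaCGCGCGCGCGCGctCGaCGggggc
Chd5, chr4:152338401-152338650: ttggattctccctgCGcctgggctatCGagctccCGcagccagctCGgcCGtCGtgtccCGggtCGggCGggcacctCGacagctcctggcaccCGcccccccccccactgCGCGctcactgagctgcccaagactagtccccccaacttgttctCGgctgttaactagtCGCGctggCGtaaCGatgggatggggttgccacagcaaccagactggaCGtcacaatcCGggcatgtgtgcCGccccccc
The window of *Chd4* held 12 CpG dinucleotides and that of *Chd5* held 21, where the median of all 32851 windows of this length was 6. At least as many CpG were found in 33.5% of all windows for *Chd4* and in 16.3% for *Chd5*. The window of *Chd8*, which was not called and is not shown, held 20, with at least as many in 17.9% of all windows. The letters CTTTGT, the core of the SOX motif, were absent on both strands from the windows of *Chd4*, *Chd5* and *Chd8*. They were present in 16.5% of all windows. These counts describe the sequence alone.

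*Chd1* (ENSMUSG00000023852_at), of subfamily I, encodes a remodeler that travels with transcribing RNA polymerase and spaces nucleosomes over active genes. It read 8.16, 8.15 and 8.15 on the ESC arrays and 7.52, 7.54 and 7.64 on the NPC arrays. Both groups were tight and did not overlap, and no NPC array came within 0.5 of an ESC array. The difference of -0.59 (standard error 0.07, adjusted p = 0.000494 by limma and Benjamini-Hochberg) had a 95% interval of -0.76 to -0.41. At 1.502-fold it exceeded the threshold by 0.002 on the log2 scale, and the call was therefore lost with small shifts of the mean. It was lost without ESC replicate 1 (-0.58), without NPC replicate 1 (-0.56) and without NPC replicate 2 (-0.57), as well as after quantile normalization (-0.53) or centring on array medians (-0.43), while the adjusted p stayed at 0.00434 or below in each of these.

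*Chd2* (ENSMUSG00000078671_at) is the closest relative of *Chd1*, and its loss in humans is known from epilepsy. It read 8.43, 8.53 and 8.51 on the ESC arrays and 8.08, 8.10 and 8.54 on the NPC arrays. NPC replicates 1 and 2 lay below all ESC arrays, and replicate 3 lay above them all. The difference of -0.25 (standard error 0.14, adjusted p = 0.178 from limma) was not called, with a 95% interval of -0.57 to 0.07. Without NPC replicate 3 it was -0.40, with an adjusted p of 0.00253 from limma, and remained under 1.5-fold.

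**Figure D2:**
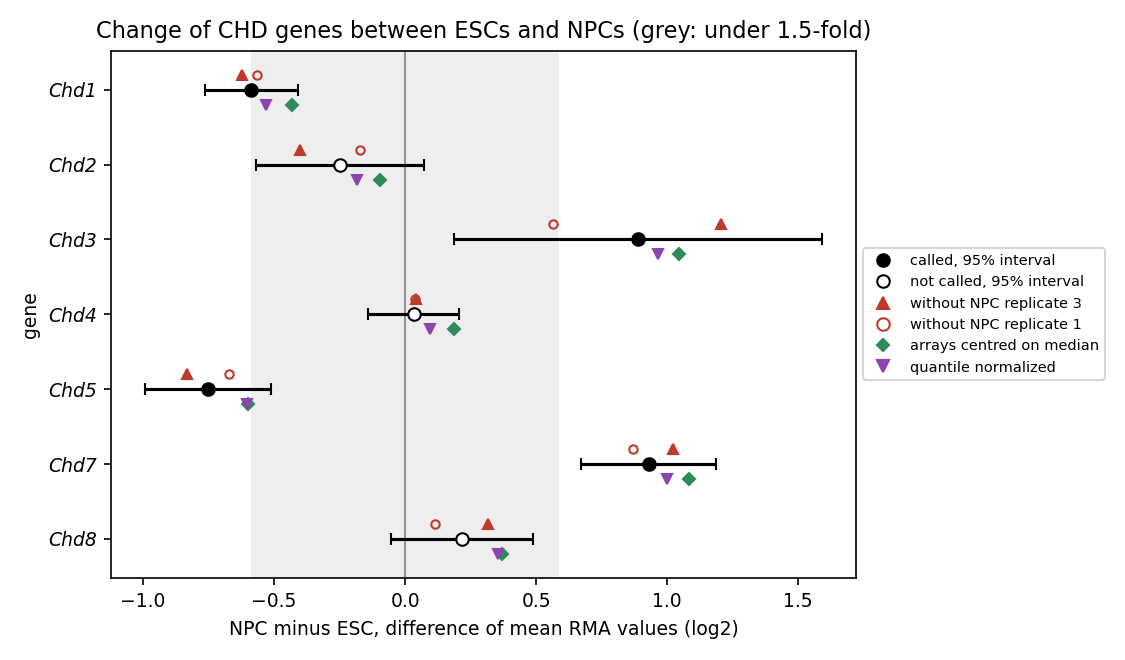
Difference of mean RMA values, NPCs minus ESCs (log2, x axis), for each CHD gene (y axis), with the 95% interval from limma as a bar and filled circles for called genes. Coloured markers give the difference without NPC replicate 1 or 3 and under 2 other scalings, and the grey band marks changes under 1.5-fold. *Chd7* and *Chd5* lay outside the band in each of these settings, *Chd1* sat on its edge, and *Chd3* moved from 0.56 to 1.21 with the NPC array left out.

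The median difference depended on scaling. Over the 17144 genes it was -0.04 in the deposited values, 0.03 after quantile normalization and 0.12 once array medians were set equal. Centring moves every gene by the same amount, whereas quantile normalization moved *Chd5* from -0.75 to -0.60 and *Chd1* from -0.59 to -0.53. The share of higher genes among the called ones moved from 45.1% to 55.6% with that centring. Relative to the median gene of the deposited values, the difference was 0.96 for *Chd7*, 0.93 for *Chd3*, -0.72 for *Chd5* and -0.55 for *Chd1*. None of the 7 differences changed sign under quantile normalization or centring. *Chd8* reached an adjusted p of 0.0291 and 0.0281 from limma under these settings, with differences of 0.35 and 0.37, and was not called because both are under 1.5-fold.

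To ask whether relatives changed unequally, the difference between their log2 values was taken on each array and compared between the cell types for 5 pairs of the same subfamily. A constant offset of either probe set cancels in its change between ESCs and NPCs, as does scaling that shifts a whole array. *Chd3* minus *Chd5* went from 0.59 ± 0.19 (SD, n = 3 arrays) to 2.23 ± 0.80 (SD, n = 3 arrays), a change of 1.64 that amounts to 3.12-fold. *Chd4* minus *Chd5* went from 1.01 ± 0.05 to 1.79 ± 0.17 (SD, n = 3 arrays each), a change of 0.78. For *Chd3* minus *Chd4* the change was 0.86, with NPC arrays at 1.10, 0.39 and -0.17 above ESC arrays between -0.60 and -0.32. In each of these pairs of subfamily II the NPC arrays lay above the ESC arrays. *Chd7* minus *Chd8* went from 0.94 ± 0.14 to 1.65 ± 0.07 (SD, n = 3 arrays each), a change of 0.71, and *Chd1* minus *Chd2* from -0.34 ± 0.06 to -0.68 ± 0.20 (SD, n = 3 arrays each), a change of -0.34. In the last pair NPC replicate 3 lay farthest from the ESC arrays, at -0.91, the array on which *Chd2* was high, and without that array the change was -0.22. Also without NPC replicate 3, the change was 2.04 for *Chd3* minus *Chd5*, 1.16 for *Chd3* minus *Chd4*, 0.88 for *Chd4* minus *Chd5* and 0.70 for *Chd7* minus *Chd8*. Without NPC replicate 1 the change of *Chd3* minus *Chd4* was 0.53. No pair overlapped between the cell types, and each gave p = 0.1 in a two-sided exact permutation test and 0.1 after Benjamini-Hochberg adjustment over the 5 pairs, which is the smallest p that 3 arrays against 3 allow. Pairs that share a gene are not independent of each other. Every pair held a gene that was called on its own, and 58.7% of all single genes did not overlap. The share without overlap among pairs of all genes was not computed, so the lack of overlap describes these pairs only.

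**Figure D3:**
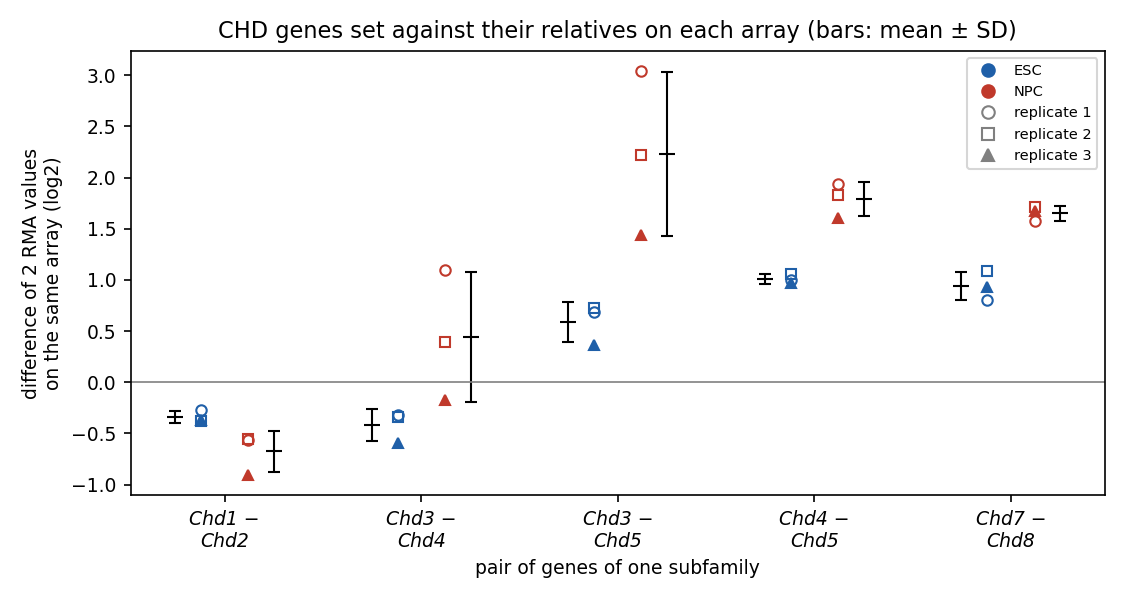
Difference between the RMA values of 2 CHD genes on the same array (log2, y axis) for 5 pairs of one subfamily (x axis), with ESC arrays in blue, NPC arrays in red and bars for the mean ± SD of n = 3 arrays. In every pair the NPC arrays lay on one side of the ESC arrays, with the largest change, 1.64, for *Chd3* against *Chd5*. The share of such pairs among all genes was not computed.

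Among the NPC arrays, replicate 3 was the one nearest to the ESC mean at all 7 CHD genes, a pattern noticed after the values were seen. The same held for 41.3% of all genes. At *Chd8* it lay 0.01 from the ESC mean, against 0.42 and 0.22 for NPC replicates 1 and 2. At *Chd2* it lay 0.05 above the ESC mean, whereas the other NPC arrays lay at -0.41 and -0.39. At *Chd3* it lay 0.26 above, against 1.54 and 0.87. At *Chd7* the distances were 0.74 against 1.05 and 0.99, and at *Chd5* they were -0.59 against -0.91 and -0.75. At *Chd1* they were -0.52 against -0.63 and -0.61. At *Chd4* they were small, 0.01 against 0.02 and 0.07, where the ESC arrays themselves spanned -0.05 to 0.04. The called members thus kept their direction on replicate 3, with a smaller distance, while *Chd8* lay within the ESC range and *Chd2* slightly above it. After quantile normalization the array was again nearest at all 7 genes and at 41.6% of all genes. By size, replicate 3 was over 0.3 away from the average of NPC replicates 1 and 2 at 3 of the 7 genes and at 30.1% of all genes. The distance was largest for *Chd3*, at -0.95, a size not exceeded by 95.6% of genes. On the same array, the astrocyte marker *S100b* (1 of 4 named) read 7.02, against 6.32 and 6.13 on the other NPC arrays. The precursor gene *Fabp7* read 13.53 there, against 12.87 and 12.76. *Nes* read 7.64, against 7.84 and 7.57, and *Vim* read 12.37, against 12.57 and 12.53. The 2 oligodendrocyte lineage factors named of 6 went opposite ways, with *Olig2* at 11.67 against 11.07 and 10.96 and *Olig1* at 12.99 against 13.21 and 13.22. The cell makeup of that culture and its part in these values was not tested.

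**Figure D4:**
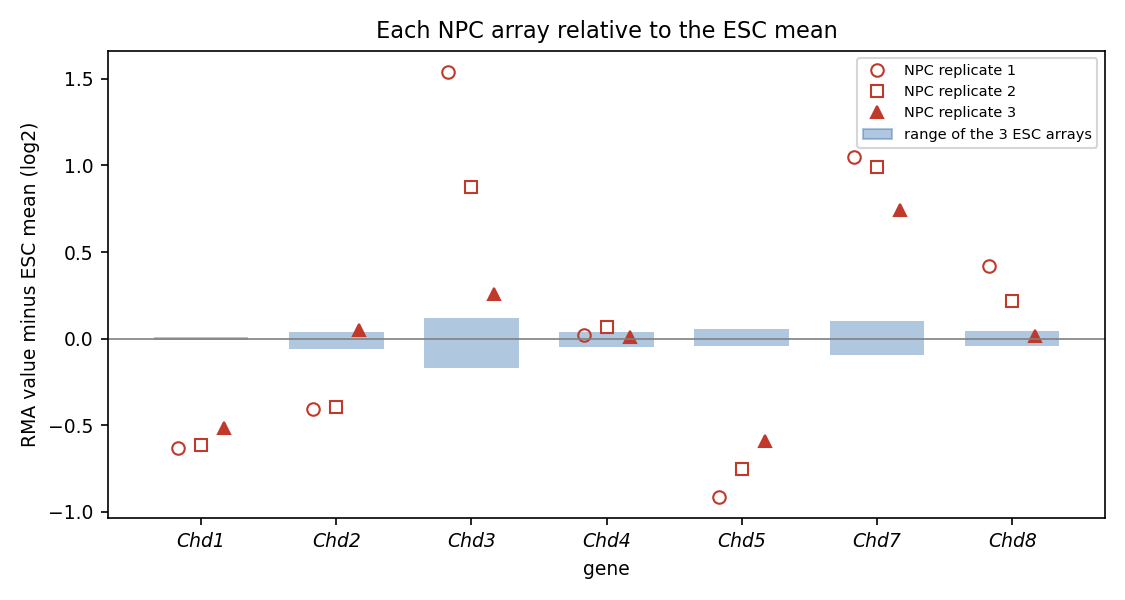
RMA value of each NPC array minus the mean of the ESC arrays (log2, y axis) for each CHD gene (x axis), with blue boxes for the range of the 3 ESC arrays. The filled triangle of NPC replicate 3 was the NPC marker nearest to 0 at each of the 7 genes, and lay 0.05 above 0 for *Chd2* and 0.01 above 0 for *Chd8*.

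CHD3, CHD4 and CHD5 work inside NuRD beside histone deacetylases and methyl-CpG-binding proteins. Of 14 partner genes listed (11 NuRD subunits and the CHD genes *Chd6*, *Chd9* and *Chd1l*), only 2 could be named on the arrays, and both were called higher in NPCs. Names come mainly from a list of rising genes, so this count says nothing of the direction of the complex. *Hdac2*, a deacetylase of NuRD, read 8.75, 8.80 and 8.49 in ESCs and 9.71, 9.61 and 9.55 in NPCs. The difference was 0.94 (standard error 0.11, adjusted p = 0.000283 from limma). *Mbd2*, a methyl-CpG-binding subunit, read 6.93, 7.09 and 6.86 in ESCs and 7.91, 7.98 and 7.78 in NPCs. The difference was 0.93 (standard error 0.10, adjusted p = 0.000183 from limma). Neither overlapped between the cell types.

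The genes most like the 2 rising members in pattern were sought among 2008 other named genes, as the smallest root mean square distance between profiles over the 6 arrays, each centred on its own mean. For *Chd7* these were *Cnst*, *Ap2s1* (a subunit of the clathrin adaptor complex) and *Unc80* (a subunit of a sodium leak channel), at distances of 0.044, 0.050 and 0.055 on the log2 scale. *Cnst* read 6.85, 6.94 and 6.94 in ESCs and 7.97, 7.87 and 7.59 in NPCs. For *Chd3* the nearest was *Cmc1*, a mitochondrial protein gene, at 0.092. It read 8.21, 8.07 and 7.93 in ESCs and 9.45, 8.99 and 8.32 in NPCs. A spread like that of *Chd3* among the NPC arrays follows from its choice by nearness to the *Chd3* profile. The next were *1700040I03Rik* at 0.145 and *4933407K13Rik* at 0.150. Over all 17144 genes, 3 lay as near to *Chd7* as *Unc80* and 6 as near to *Chd3* as *4933407K13Rik*, so that some genes closer to *Chd3* have no name here.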

How the data were processed

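RNA of 3 ESC and 3 NPC samples was measured on Affymetrix mouse arrays. The authors scanned them with GeneChip Operating Software and deposited log2 values made by RMA, which corrects background, quantile normalizes over the arrays and summarizes probes, here to 1 value per Ensembl gene under an updated annotation (BrainCDF, version and build not given in the sources used here). Of 17208 rows, 64 control probe sets were left out, and no filter was applied to the other 17144. Arrays carry no counts, and their number limits the precision.

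R 4.3.3 and limma 3.58.1 were used for the test of all genes (lmFit, eBayes, Benjamini-Hochberg adjustment, cell type as the single term), with the 1.5-fold threshold of the study's methods, whose moderated Welch test was rebuilt as an alternative. Intervals are limma's 95% intervals, not adjusted for the number of genes. Pairs of genes were compared with an exact permutation test (scipy 1.17.1). The limma fit was tested on simulated data. The CHD genes were found by their listed Ensembl identifiers. Other genes were named by matching all 6 values, within 0.0001, to rows printed with a name in the study's supplementary tables, mostly genes that rose. The authors' own fold changes and test statistics in those tables were not used. Named are the 7 members, the partner and marker genes that could be named, and the 3 nearest profiles of each risen member. The members and lists were chosen with earlier results of these data known. Fibroblast markers (0 of 5) and the other CHD genes (0 of 3) could not be named, and 1 of 6 ESC, 3 of 6 NPC, 1 of 6 neuron, 1 of 4 astrocyte and 2 of 6 oligodendrocyte markers could. Alternatives covered the test, the variance model, the replicate block, array weights, scaling, a filter, the fold threshold and each array left out. Promoter sequences are RefSeq's, GRCm38.p6.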

Additional observations from a re-analysis of the deposited data

How the results depend on the processing

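Over 17 alternatives, the differences of the 7 CHD genes gave 118 values, of which none changed sign, 103 stayed on the same side of the call and 15 lost it. The test, the variance model, the replicate block, the filter and the fold threshold leave a difference as it is. Its sign could thus change only with array weights, scaling or an array left out. At the 4 genes without overlap, weights or leaving out an array could not change it either. A threshold of 2-fold left 0 genes called in either direction, since the largest differences were 0.93 (*Chd7*), 0.89 (*Chd3*), -0.75 (*Chd5*) and -0.59 (*Chd1*). Apart from that threshold, *Chd7* and *Chd5* were called in every alternative run, although the filter at the median gene dropped *Chd5* and so left 1 gene called lower. *Chd3* was not called under the unmoderated test with unequal variances (0.89, 1 gene called higher), and *Chd1* was not called after quantile normalization (-0.53) or median centring (-0.43), which left 1 gene called lower. With each array left out in turn, 1 to 2 genes were called higher and 1 to 2 lower. The difference then lay between 0.56 and 1.21 for *Chd3*, between -0.62 and -0.56 for *Chd1*, between -0.40 and -0.17 for *Chd2* and between 0.12 and 0.32 for *Chd8*. With array quality weights, which gave NPC replicate 3 a weight of 0.185, the same 4 genes were called, and *Chd2* (-0.35, adjusted p = 0.00503) and *Chd8* (0.25, adjusted p = 0.0254, both limma) stayed under 1.5-fold. The 35 recomputed differences between pairs of relatives kept their sign. With an array left out this was fixed in advance, because no pair overlapped between the cell types. Only the values after quantile normalization could have reversed. For the replicate block, deviations of arrays with the same number correlated at 0.026, 0.011 and -0.0064, so no pairing by number showed in the values. The sample descriptions link such arrays only by replicate number, and the sample titles number the NPC arrays differently. Whether arrays with the same replicate number shared a preparation was not tested. In this balanced design blocking cannot move the differences, which stayed at 0.93 for *Chd7*, -0.75 for *Chd5*, 0.89 for *Chd3* and -0.59 for *Chd1*. Only standard errors and p-values could move. Blocking called 2 genes higher and 2 lower, and brought the number of all genes called from 5851 to 5867.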
